A study of Mus musculus with 8 samples.

Results

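The genes described here encode the proteasome and its immunoproteasome variant in intrahepatic CD8 T cells. They were taken by symbol, as every gene whose symbol starts with Psma to Psmg followed by a number and carries no pseudogene suffix. The rule matched 49 of the 22609 genes in the count files. Of these, 48 belong to the proteasome, its regulators or its assembly factors. The remaining gene, Psmc3ip, encodes a meiotic recombination factor named for binding the protein of the ATPase gene Psmc3, is no subunit of the proteasome, and is kept apart below. Reads were found for 47 genes, and the same 47 were abundant enough to be tested, among 10073 tested genes in all. The comparison is between 2 sorted subsets, with 4 RNA-seq libraries each. Both came from livers of male C57BL/6J mice aged 6 weeks injected on day 0, 3 and 6 with an antibody (αCD137) that triggers the T cell costimulatory receptor CD137, and livers were taken on day 8. Both were KLRG1+CD127- CD8 T cells, a surface profile of effector cells, and they differed by the presence (CD11c+) or absence (CD11c-) of surface CD11c, an integrin chain better known from dendritic cells. No subset without the antibody was analysed here, so every value describes cells of treated mice. Whether the libraries stem from separate mice is not stated in the labels, so p-values reflect a spread between libraries that may be technical only. In sorted populations, fewer cells with a transcript and less transcript per cell cannot be told apart.

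The proteasome is the main protease of the cytosol and nucleus for proteins tagged with ubiquitin. Its core particle is a barrel of outer alpha rings and inner beta rings, and a regulatory particle at its ends binds tagged proteins, unfolds them with a ring of ATPases and feeds them into the barrel. Interferon gamma induces substitute catalytic beta subunits and the activator PA28, which together form the immunoproteasome, whose cleavage products are well suited to loading on MHC class I. Lymphocytes carry it constitutively, and activated T cells, which make proteins and divide fast, depend on proteasome activity.

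Promoter sequences are shown for the gene pair whose levels differed most within the catalytic set, Psmb8 and its constitutive counterpart Psmb5, and for the stretch that Psmb9 shares with Tap1, a transporter gene of the same antigen processing pathway. They come from RefSeq (GRCm38.p6), whereas the reads were counted on mm9, and they were matched by symbol. Each is written 5′ to 3′, with capitals marking the match named beside it.
Psmb8 (chr17:34197945-34198194, plus strand, the 250 bases before its start, capitals mark a gamma-activated site type match, TTCNNNGAA): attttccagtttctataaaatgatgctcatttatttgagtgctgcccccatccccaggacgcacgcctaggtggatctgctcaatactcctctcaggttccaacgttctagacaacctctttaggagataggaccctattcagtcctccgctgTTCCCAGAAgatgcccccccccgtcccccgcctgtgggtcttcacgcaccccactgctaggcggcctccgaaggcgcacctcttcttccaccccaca
Psmb5 (chr14:54617996-54618245, minus strand, the 250 bases before its start, capitals mark an antioxidant response element type match, TGACNNNGC): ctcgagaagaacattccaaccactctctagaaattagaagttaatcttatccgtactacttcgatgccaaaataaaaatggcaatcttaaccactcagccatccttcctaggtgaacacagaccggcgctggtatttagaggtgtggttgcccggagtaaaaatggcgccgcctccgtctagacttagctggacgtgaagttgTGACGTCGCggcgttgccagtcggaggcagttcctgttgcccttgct
Psmb9-Tap1 (chr17:34187331-34187555, written on the plus strand, the 225 bases between both starts, capitals mark a CCAAT match, which reads on the strand of Tap1): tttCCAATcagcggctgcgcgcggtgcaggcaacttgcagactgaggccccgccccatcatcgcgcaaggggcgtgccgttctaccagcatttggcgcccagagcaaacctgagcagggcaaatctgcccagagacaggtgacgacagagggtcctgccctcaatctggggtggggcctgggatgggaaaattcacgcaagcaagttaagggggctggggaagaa
In Psmb8 the match begins 97 bases before the start and reads on both strands, and in Psmb5 it begins 47 bases before the start. No other searched motif overlapped these matches. Promoter windows of 300 bases (250 before and 50 after the start) were available for 40 of the 48 genes and were searched on both strands. The gamma-activated site type matched 3 of the 40 genes (7.5%: Psmb8, Psmd2 and Psmg1) against 9.55% of 27025 genes in the table. The interferon-stimulated response element type (GAAA, any 2 bases, GAAA) matched 5 (12.5%: Psmb3, Psme1, Psmd4, Psmd9 and Psmg4) against 3.99%. The antioxidant response element type, the letters bound by NRF1 and NRF2, matched 6 (15%, among them Psmb5 and Psmb6) against 14%, and CCAAT matched 14 (35%) against 41.1%. A match describes letters in a window, not a bound site.

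Each library held 5090345 to 7093163 gene reads. The sorted protein's own gene, Itgax, ranged over 198 to 357 CPM (counts of 1 gene per 1e6 gene reads) in CD11c+ libraries and 4.76 to 18.0 CPM in CD11c- libraries. The T cell markers Cd3e, Cd3d, Cd8a and Cd8b1 summed to 4327 to 5219 CPM in CD11c+ and 4387 to 4876 CPM in CD11c- libraries. The 5 markers of NK and innate lymphoid (ILC1) cells summed to 192 to 310 CPM in CD11c+ and 176 to 210 CPM in CD11c- libraries. Their sum was highest in CD11c+ replicate 3, and most of it was Eomes, which CD8 T cells also make. Tyrobp and Fcer1g reached 55.2 and 22.6 CPM in CD11c+ libraries and 18.1 and 17.1 CPM in CD11c- libraries. Immunoproteasome genes are also made by myeloid cells, some of whose markers stood apart in CD11c+ replicate 3. There, 4 matched neutrophil markers summed to 266 CPM, against 2.27 to 39.8 CPM in the other CD11c+ and 7.003 to 103 CPM in the CD11c- libraries, and Mpo was at 0 in all libraries. The 8 monocyte and Kupffer cell markers summed to 28.9 to 293 CPM in CD11c+ libraries, highest in the same library, and to 36.6 to 150 CPM in CD11c- libraries. In CD11c+ replicate 3 most of this sum was Lyz2, at 265 CPM. Csf1r was at 23.5 CPM there, its highest value in any library. C1qb and C1qc were at 3.74 and 0.713 CPM in that library, and Emr1, Clec4f, Cd5l and C1qa were at 0. Of the 7 dendritic cell markers other than Itgax, Xcr1 was at 1.25 to 4.69 CPM in CD11c+ and 0 to 1.505 CPM in CD11c- libraries. Cd209a and Flt3 were at 0 in CD11c- libraries and reached 4.36 and 4.99 CPM in CD11c+ libraries. Flt3 had reads in CD11c+ replicate 3 alone, and Cd209a in CD11c+ replicates 3 and 4 alone. Zbtb46 leaned the other way (mean 1.21 CPM in CD11c+ and 1.60 CPM in CD11c- libraries). Clec9a, Siglech and Batf3 reached at most 1.09 CPM.

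No proteasome gene passed the test of a difference between the subsets. Of 46 tested genes, 0 passed an adjusted p of 0.05 over all genes by edgeR's quasi-likelihood test, with adjusted p from 0.991 to 0.999, where 0.0496% of all tested genes passed (0.0298% higher and 0.0199% lower in CD11c+). At an unadjusted p under 0.05 the count was again 0, against 4.7% of all tested genes (2.43% higher and 2.26% lower). DESeq2 and limma voom also called 0 of the 46, with 0 at an unadjusted p under 0.05 in each. In CPM, the CD11c+ and CD11c- libraries overlapped for all 46 genes, while 3.44% of all tested genes had no overlap (1.6% with CD11c+ above and 1.85% with CD11c- above). The median log2 fold change (CD11c+ over CD11c-) of the 46 was -0.01, with 21 positive and 25 negative values, beside 0.01 over all tested genes, of which 51.7% were positive and 48.3% negative. Summed over the 48 genes, proteasome transcripts took 1.15% ± 0.0551 of gene reads in CD11c+ and 1.17% ± 0.0918 in CD11c- libraries (SD, n = 4 each).

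The intervals describe how large a missed difference between these libraries could be, for 1 gene at a time. They rest on the spread between libraries, which may be technical only, so they set no bound across mice. Each 95% interval was taken from the fold change, its standard error (SE) in the same fit and the fit's degrees of freedom. For 40 of the 46 genes (87%) the interval stayed within 1.5-fold in either direction, which was so for 29.3% of all tested genes. The 6 others were Psma3, Psmd10, Psmd11, Psme4, Psmg3 and Psmg4. Psme4 alone had an interval that reached 2-fold, up to 2.13-fold higher. The median SE was 0.14 on the log2 scale for the 46 genes and 0.27 over all tested genes. All tested genes include many outside the abundance range of the 46. The median SD of log2 CPM within subsets was 0.184 for the 46 and 0.376 over all tested genes. It was 0.287 for the 6541 tested genes within their range of mean log2 CPM.

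**Figure D1:**
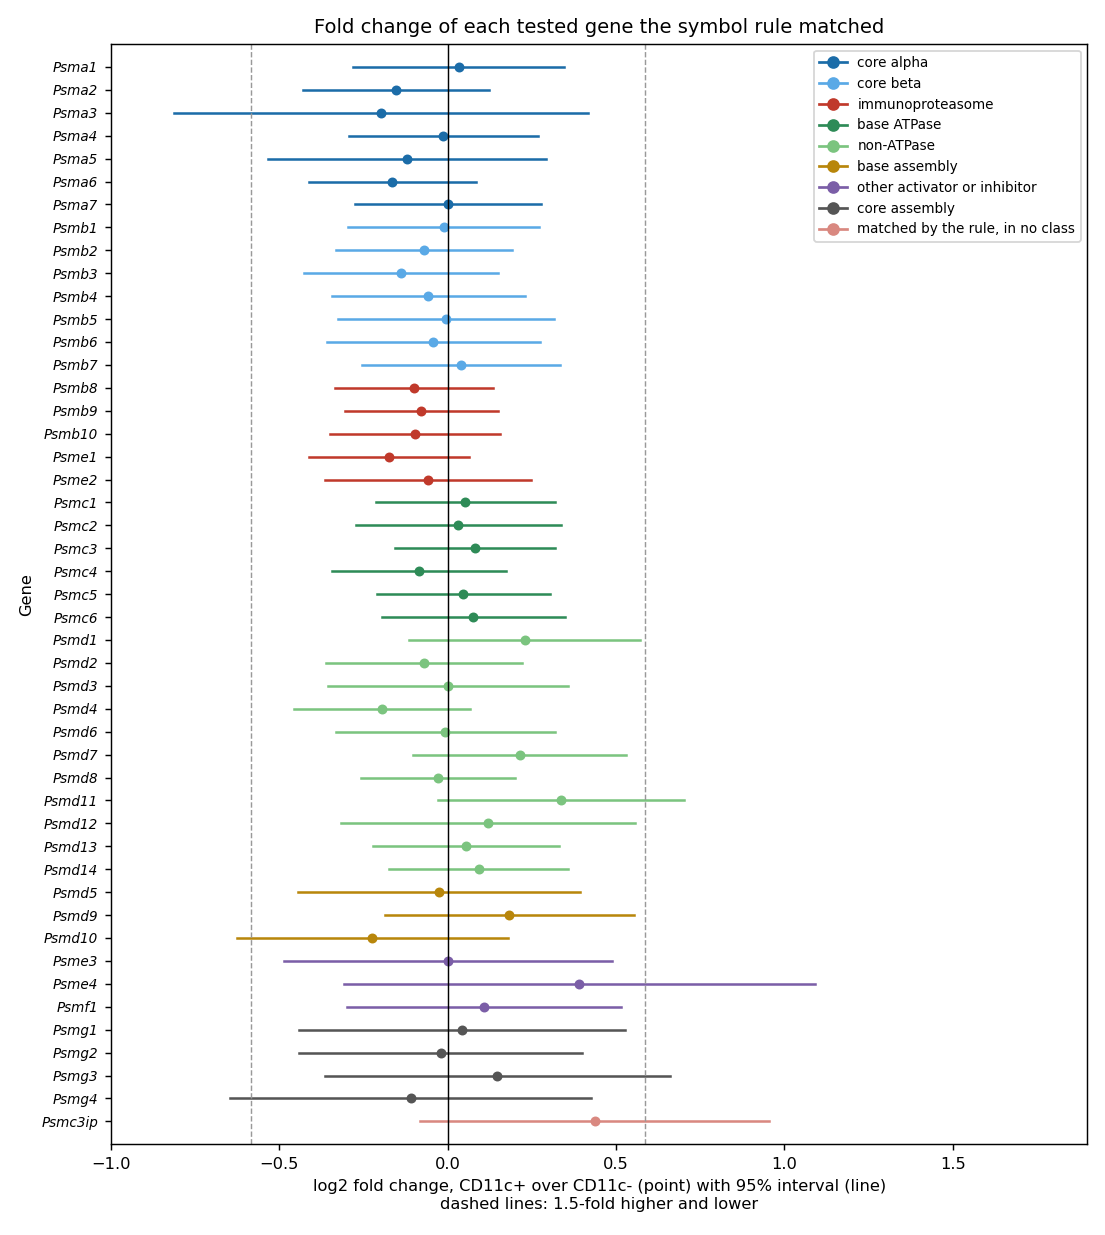
Log2 fold change of CD11c+ over CD11c- libraries (x axis) for each of the 47 tested genes matched by symbol (y axis), coloured by the part of the proteasome it belongs to, with its 95% interval as a line and 1.5-fold marked by dashed lines. Every interval crosses 0, and those of Psme4 and Psma3, the genes with the largest SEs, are the widest.

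The immunoproteasome genes were abundant in both subsets, and none of the 5 passed the test. Psmb8, which encodes the catalytic subunit LMP7, was at 1466, 1512, 1686 and 1685 CPM in CD11c+ replicates 1 to 4 and at 1435, 1713, 1597 and 2057 CPM in CD11c- replicates 1 to 4. The CD11c- libraries held both the lowest and the highest value, and all CD11c+ libraries lay between them. The log2 fold change was -0.10 (SE 0.11, 95% interval 0.79- to 1.10-fold, adjusted p = 0.991 by edgeR).

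Psmb9, which encodes the catalytic subunit LMP2, was at 655, 564, 662 and 674 CPM in CD11c+ replicates 1 to 4, against 636, 676, 612 and 773 CPM in CD11c- replicates 1 to 4. The subsets overlapped, with the lowest value in CD11c+ replicate 2 and the highest in CD11c- replicate 4 (log2 fold change -0.08, SE 0.10, interval 0.81- to 1.11-fold). Its promoter neighbour Tap1, which encodes a chain of the peptide transporter of the endoplasmic reticulum, was at 762, 737, 663 and 717 CPM in CD11c+ libraries and at 868, 798, 721 and 803 CPM in CD11c- libraries, with a log2 fold change of -0.15 (SE 0.09). Psmb10, which encodes the remaining inducible catalytic subunit, MECL-1, was at 408.8, 346.4, 412.4 and 391.6 CPM in CD11c+ replicates 1 to 4 and at 406, 386, 380 and 497 CPM in CD11c- replicates 1 to 4. Apart from CD11c- replicate 4 its CD11c- values lay within the CD11c+ range (log2 fold change -0.10, SE 0.12, interval 0.78- to 1.11-fold).

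The PA28 activator opens the gate of the core particle without ATP. Psme1, which encodes its alpha chain, was at 444, 403, 505 and 485 CPM in CD11c+ replicates 1 to 4, against 553, 502, 459 and 559 CPM in CD11c- replicates 1 to 4. Of the 5 immunoproteasome genes it had the lowest unadjusted p, at 0.137, with a log2 fold change of -0.17 (SE 0.11, interval 0.75- to 1.04-fold), and its subsets overlapped. Psme2, the beta chain, was at 107, 109, 132 and 113 CPM in CD11c+ libraries and at 114, 118, 109 and 141 CPM in CD11c- libraries (log2 fold change -0.06, SE 0.14), with overlap as well. All 5 log2 fold changes were negative, with a median of -0.10, while 0 of the 5 passed the test. The median was -0.01 without CD11c- replicate 4, the library with the highest value of each of these genes, -0.05 without CD11c+ replicate 2 and -0.13 without CD11c+ replicate 3, the library with the most myeloid marker transcript.

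The constitutive catalytic subunits, whose places in the beta ring the inducible ones take, overlapped between the subsets as well. Psmb5, the counterpart of Psmb8 with chymotrypsin-like activity, was at 120, 122, 118 and 149 CPM in CD11c+ replicates 1 to 4, against 121, 117, 117 and 156 CPM in CD11c- replicates 1 to 4. Replicate 4 was the highest in both subsets and the others lay within a few CPM of each other (log2 fold change -0.01, SE 0.15). Psmb6, the counterpart of Psmb9 with caspase-like activity, was at 287, 301, 362 and 342 CPM in CD11c+ libraries and at 266, 359, 295 and 411 CPM in CD11c- libraries, so that the CD11c+ values all fell inside the CD11c- range (log2 fold change -0.04, SE 0.15). Psmb7, the counterpart of Psmb10 with trypsin-like activity, was at 147, 140, 136 and 167 CPM in CD11c+ libraries and at 128, 165, 131 and 150 CPM in CD11c- libraries (log2 fold change 0.04, SE 0.14), again with overlap.

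**Figure D2:**
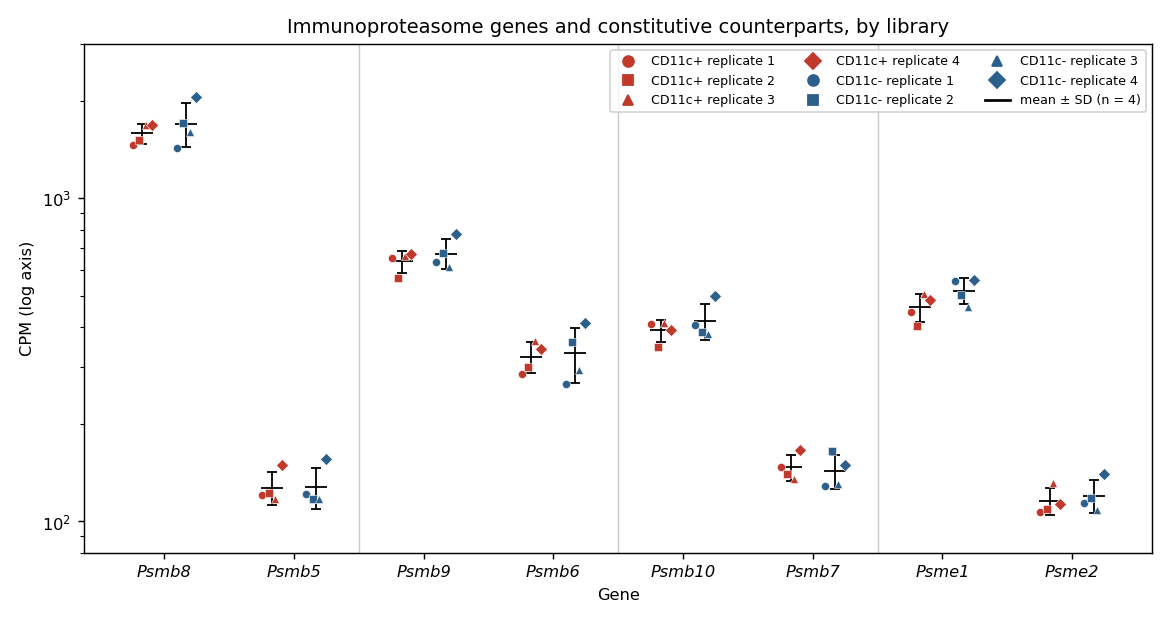
CPM on a log axis (y axis) of the inducible catalytic subunits beside their constitutive counterparts, and of both PA28 chains (x axis), with 1 point per library, CD11c+ to the left of CD11c-, and bars for mean ± SD (n = 4). Within each gene the subsets overlap, and CD11c- replicate 4 is the highest library for Psmb8, at 2057 CPM.

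Among the remaining core genes, the alpha subunits form the outer rings and their gate. Of 7 tested alpha genes 2 had positive and 5 negative log2 fold changes, from -0.20 for Psma3 (17.9 CPM ± 3.75 against 20.5 ± 3.42, SD, n = 4 each) to 0.03 for Psma1 (478 CPM ± 103 against 467 ± 36.4), and 0 passed. Psma6 had the lowest unadjusted p of the core genes, at 0.178. It was at 255, 270, 293 and 301 CPM in CD11c+ replicates 1 to 4 and at 353, 304, 275 and 323 CPM in CD11c- replicates 1 to 4, with a log2 fold change of -0.16 (SE 0.11, interval 0.75- to 1.06-fold). Of the CD11c- libraries, replicate 3 lay inside the CD11c+ range and the other three above it. The 7 tested constitutive beta genes ran from -0.14 for Psmb3 (112 CPM ± 8.66 against 124 ± 9.67) to 0.04 for Psmb7, and 1 of the 7 was positive. Over both rings the median log2 fold change was -0.05, with 11 of 14 negative. It was -0.03 when CD11c+ replicate 1 was left out, -0.01 for CD11c+ replicate 2 and -0.02 for CD11c- replicate 4. Leaving out CD11c+ replicate 3 or 4, or CD11c- replicate 1 or 3, gave -0.09 to -0.10.

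In the regulatory particle, the 6 ATPases of the base, which unfold substrates, had log2 fold changes between -0.08 (Psmc4, 315 CPM ± 37.9 against 334 ± 27.5) and 0.08 (Psmc3, 403 CPM ± 37.8 against 381 ± 29.9). The 11 non-ATPase subunits, which bind ubiquitin chains, remove them or hold the lid together, spread more widely, from -0.20 to 0.34, and 0 passed. Psmd11, a lid scaffold subunit known from human embryonic stem cells as a limiting factor of proteasome assembly, had the lowest unadjusted p of the 46 genes, at 0.0690. It was at 103, 109, 94.1 and 106 CPM in CD11c+ replicates 1 to 4, against 62.2, 82.1, 79.8 and 102 CPM in CD11c- replicates 1 to 4. Only CD11c- replicate 4 reached into the CD11c+ range. The log2 fold change was 0.34 (SE 0.17, interval 0.98- to 1.63-fold, adjusted p = 0.991 by edgeR), and 0.22 without CD11c- replicate 1.

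Psmd4, a receptor for ubiquitin chains, leaned the other way. It was at 212, 266, 231 and 239 CPM in CD11c+ replicates 1 to 4 and at 291, 246, 251 and 301 CPM in CD11c- replicates 1 to 4, with CD11c+ replicate 2 inside the CD11c- range (log2 fold change -0.20, SE 0.12, interval 0.73- to 1.05-fold). Psmd7, which forms a pair with the lid's deubiquitinase, was at 156, 226, 200 and 220 CPM in CD11c+ libraries and at 166, 189, 149 and 188 CPM in CD11c- libraries (log2 fold change 0.21, SE 0.15, and 0.14 without CD11c+ replicate 2 or CD11c- replicate 3). CD11c+ replicate 1 was below 3 of the 4 CD11c- libraries and the other CD11c+ libraries were above all of them. Psmd1, a large scaffold subunit of the base, was at 235, 279, 171 and 224 CPM in CD11c+ libraries and at 187, 228, 168 and 192 CPM in CD11c- libraries (log2 fold change 0.23, SE 0.16), with overlap. Its log2 fold change was 0.11 without CD11c+ replicate 2. The deubiquitinase itself, Psmd14, averaged 272 CPM ± 32.7 in CD11c+ libraries, against 255 ± 22.0 in CD11c- libraries (log2 fold change 0.09). Counting base chaperones and alternative caps, 16 of 23 tested regulator genes lay above 0 and 7 below, and their median log2 fold change was 0.05. That median was 0.03 without CD11c+ replicate 4, -0.00079 without CD11c- replicate 3 and 0.08 without CD11c- replicate 4.

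Assembly factors and alternative caps were scarcer and less precisely measured. The base chaperones Psmd5, Psmd9 and Psmd10 had log2 fold changes of -0.03, 0.18 and -0.22 (Psmd10, -0.12 without CD11c+ replicate 2), and the core chaperones Psmg1 to Psmg4 lay between -0.11 and 0.15. Psme4, which encodes the activator PA200, averaged 23.6 CPM ± 9.04 in CD11c+ libraries, against 18.0 ± 3.95 in CD11c- libraries, a log2 fold change of 0.39 (SE 0.32) and the largest of the 46 with all libraries in. It was at 16.0, 20.1, 36.7 and 21.7 CPM in CD11c+ replicates 1 to 4 and at 12.3, 21.0, 18.6 and 20.1 CPM in CD11c- replicates 1 to 4. Its highest value, 36.7 CPM, was in CD11c+ replicate 3. The log2 fold change was 0.09 without that library and 0.24 without CD11c- replicate 1. Psme3, the nuclear activator PA28 gamma, was at 57.5 CPM in both subsets (SD 9.67 in CD11c+ and 15.3 in CD11c-). Psmf1, an inhibitor in vitro, was at 91.5 CPM ± 17.5 in CD11c+ libraries, against 84.9 ± 15.8 in CD11c- libraries. Both tissue-restricted core genes, the testis alpha subunit Psma8 and the thymus beta subunit Psmb11, had 0 reads in all 8 libraries, which allows up to 0.0646 CPM each over the 46468360 gene reads, counting error only. Psmc3ip, the gene outside the proteasome, was at 33.8, 32.3, 29.2 and 28.2 CPM in CD11c+ replicates 1 to 4 and at 18.8, 27.3, 19.2 and 25.9 CPM in CD11c- replicates 1 to 4. Of the 47 tested genes matched by symbol it was the 1 whose subsets did not overlap (2.13%, against 3.44% of all tested genes), and its log2 fold change of 0.44 (SE 0.24, adjusted p = 0.991 by edgeR) did not pass.

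Scores gave each gene group 1 value per library, as the mean log2 CPM of its tested genes, and carry no test. The immunoproteasome score was 8.82, 8.72, 8.96 and 8.90 in CD11c+ replicates 1 to 4 and 8.88, 8.92, 8.82 and 9.16 in CD11c- replicates 1 to 4. The core score was 7.53, 7.45, 7.66 and 7.73 in CD11c+ libraries and 7.56, 7.71, 7.58 and 7.78 in CD11c- libraries. The regulator score was 7.25, 7.28, 7.22 and 7.37 in CD11c+ libraries and 7.16, 7.28, 7.13 and 7.33 in CD11c- libraries. In all 3 scores the subsets overlapped, and CD11c- replicate 4 was above the other CD11c- libraries each time. The differences in mean score were -0.10, -0.07 and 0.06, each below the SD within either subset.

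Differences between scores were also taken per library, as a description. Whether gene groups outside the proteasome shared the same shifts between libraries was not tested. The immunoproteasome score minus the core score was 1.26 ± 0.0600 in CD11c+ and 1.29 ± 0.0819 in CD11c- libraries, a smaller spread over all 8 libraries (SD 0.0687) than that of the core score (0.114) or the immunoproteasome score (0.132) alone. The regulator score minus the core score spread from -0.44 to -0.16 in CD11c+ libraries (mean -0.31 ± 0.120) and only from -0.45 to -0.40 in CD11c- libraries (mean -0.43 ± 0.0230), with overlap. It was highest in CD11c+ replicate 2, the library with the lowest core score, which is itself subtracted in this difference.

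**Figure D3:**
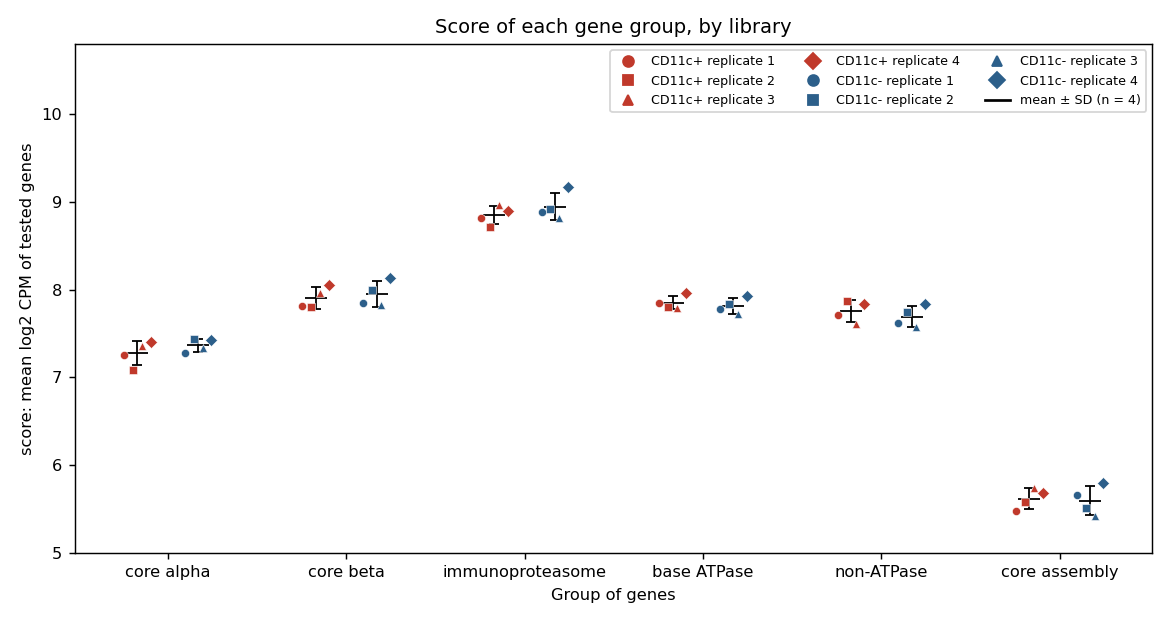
Mean log2 CPM of the tested genes of each group (y axis) for 6 groups of proteasome genes (x axis), with 1 point per library, CD11c+ to the left of CD11c-, and bars for mean ± SD (n = 4). The subsets overlap in every group, and the immunoproteasome genes have the highest scores, between 8.72 and 9.16, on a scale that does not correct for gene length.

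To compare genes with each other, CPM were divided by exon length (GENCODE vM21). Psmb8 was the most abundant proteasome transcript in all 8 libraries, with 975 CPM per kb ± 70.7 in CD11c+ libraries and 1045 ± 162 in CD11c- libraries (SD, n = 4 each). Psmb9 followed, at 472 ± 37.1 and 499 ± 52.4 CPM per kb, at rank 2 in 6 libraries and rank 3 in 2, and its values were close to those of Psme1 (413 ± 40.5 and 466 ± 42.2) and of the core subunit Psmb2 (412 ± 45.3 and 433 ± 46.99). Psmb10 ranked ninth in every library, at 297 ± 23.1 and 318 ± 41.4 CPM per kb. Psme4 was the scarcest detected gene, at 3.64 ± 1.39 and 2.77 ± 0.609 CPM per kb. Across the 46 tested genes, the log2 of the mean level per kb in CD11c+ and in CD11c- libraries correlated with Pearson's r = 0.997. This is a description across genes, which are not independent replicates and share their libraries.

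**Figure D4:**
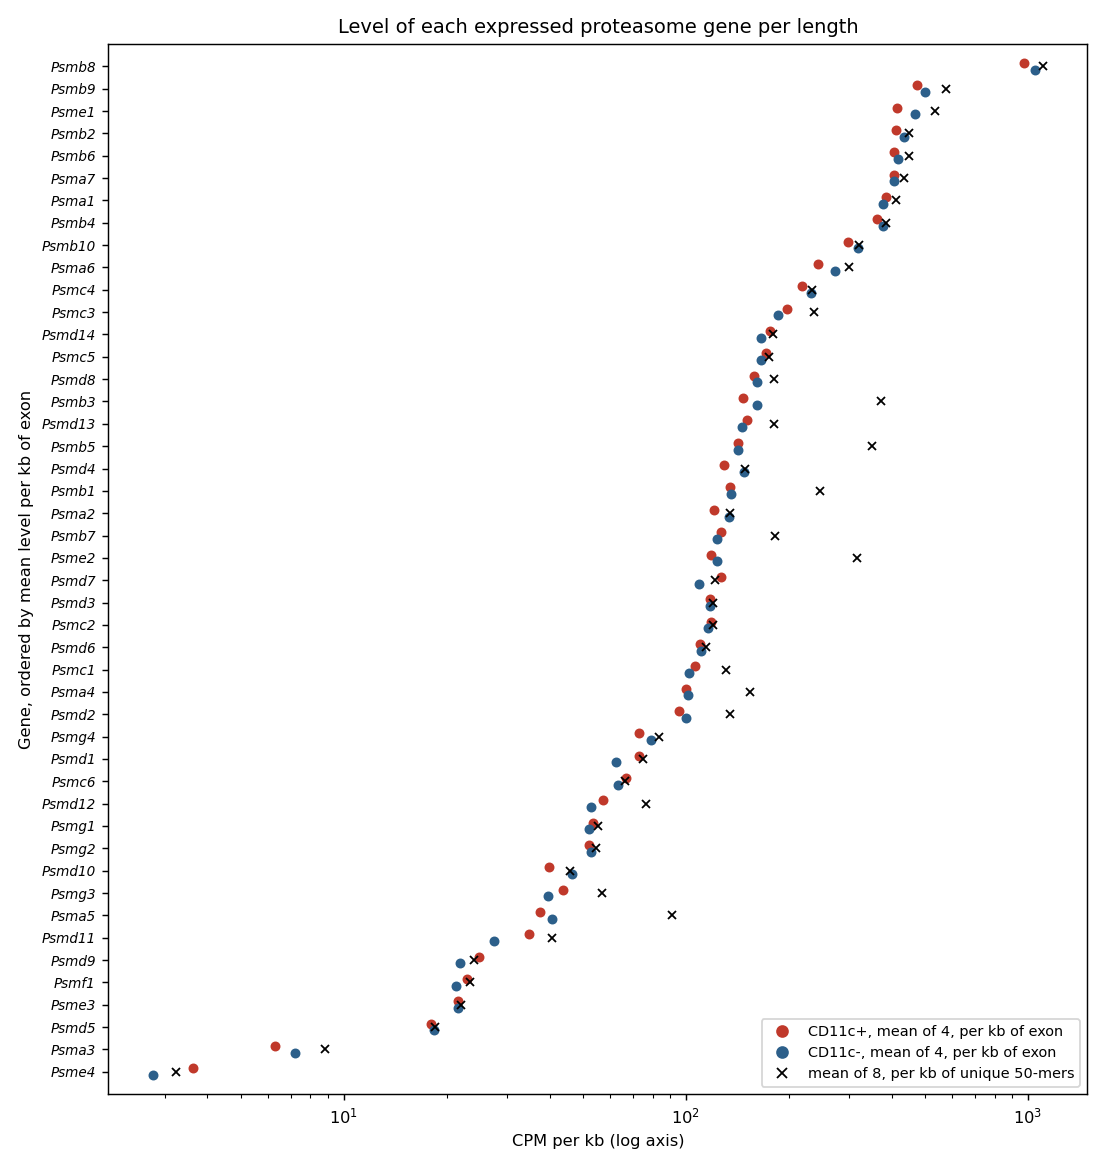
CPM per kb on a log axis (x axis) of the 46 detected proteasome genes (y axis, ordered by mean level), with CD11c+ and CD11c- means of 4 libraries as coloured points and, as crosses, the mean of all 8 libraries per kb of 50-base stretches found in no other annotated gene. Psmb8 is the highest on both scales. The crosses of Psmb3, Psmb5, Psme2 and Psma5 lie far to the right of their points, and that of Psmb1 less far.

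The ratio of an inducible subunit to its constitutive counterpart was above 1 in every library, but its size depended on the length used. Psmb8 exceeded Psmb5 by 6.93-fold ± 0.704 in CD11c+ and 7.36-fold ± 0.639 in CD11c- libraries per kb of exon. However, 57.1% of the 50-base stretches of Psmb5 also occur in 3 other annotated genes, 2 of them pseudogenes, against 5.83% for Psmb8, and the files list alignments at several places outside the gene counts. Per kb of stretches found in no other gene, a scale chosen after seeing the data, the ratio was 3.08 ± 0.313 in CD11c+ and 3.27 ± 0.284 in CD11c- libraries. Psmb9 to Psmb6 was 1.17 ± 0.122 and 1.21 ± 0.143 per kb of exon and 1.27 ± 0.132 and 1.32 ± 0.155 per unique kb. Psmb10 to Psmb7 was 2.35 ± 0.275 and 2.59 ± 0.384 per kb of exon and 1.68 ± 0.197 and 1.86 ± 0.275 per unique kb. Of the stretches of Psmb7, 28.1% also occur in 1 other gene, the protein-coding Nek6, against 0% for Psmb10. Psme1 to Psme2, whose proteins form a joint ring, was 3.49 ± 0.237 and 3.80 ± 0.327 per kb of exon, and 1.62 ± 0.110 and 1.76 ± 0.152 per unique kb, with 59.3% of the stretches of Psme2 shared. Psmb3 (55.8%) and Psma5 (55.4%) shared as much, so their absolute levels are uncertain too. Exon length joined all coding transcripts of a gene, while the stretches came from the longest alone, so the scales differ by more than sharing. Psmb1 moved from 135 to 247 CPM per kb with 2.50% of its stretches shared. In all 4 ratios the subsets overlapped, and the choice of length scales all libraries alike and cannot change that.

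Other genes of the pathway were read from 4 lists, in which 0 genes passed over all genes by edgeR. Of 18 proteasome partners and controllers 9 had positive and 9 negative log2 fold changes. Among them were the core assembly factor Pomp (285 CPM ± 37.8 against 294 ± 25.9), the ubiquitin receptor Adrm1 (18.6 ± 6.10 against 16.8 ± 4.21) and Nfe2l1, which encodes NRF1, the factor that restores proteasome transcription when activity is low (52.5 ± 10.3 against 60.2 ± 7.57). Of 14 ubiquitin and shuttle genes, 10 had positive log2 fold changes, and Nploc4, a cofactor of the segregase p97, had an unadjusted p of 0.0456 (45.2 CPM ± 16.0 against 29.8 ± 2.29, adjusted p = 0.991 by edgeR). Class I antigen processing genes were split 7 to 7. In CD11c+ against CD11c- libraries, B2m, the light chain, averaged 7055 CPM ± 606 against 7018 ± 517. H2-K1, a heavy chain, averaged 5621 ± 450 against 5886 ± 91.6, and Tap2 605 ± 83.5 against 675 ± 45.5. Nlrc5, the transactivator of the class I genes and of Psmb9, averaged 403 ± 109 against 374 ± 40.5. Tapbpl, a peptide editor, averaged 213 CPM ± 18.5 against 253 ± 14.3, with an unadjusted p of 0.0466 (adjusted p = 0.991 by edgeR). Of 13 tested interferon signalling genes, 6 had positive log2 fold changes. Irf1, which drives immunoproteasome transcription, averaged 365 CPM ± 37.4 in CD11c+ libraries, against 423 ± 66.5 in CD11c- libraries. The receptor chain Ifnar1 averaged 129 ± 14.0 against 165 ± 14.0, with an unadjusted p of 0.0169 (adjusted p = 0.990 by edgeR). In the order above, 0 of 18, 1 of 14, 1 of 14 and 1 of 13 genes had an unadjusted p under 0.05. The share over all tested genes was 4.7%.

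Genes of cell division leaned towards CD11c+ cells without passing. All 8 lay above 0, their median log2 fold change was 0.27, and 4 had an unadjusted p under 0.05 (Mki67, Top2a, Cenpe and Kif23), against 4.7% of all tested genes, while 0 passed over all genes. The list was chosen with earlier results of these data known and its genes share their libraries, so the counts are a description only. Mki67, the gene of the Ki-67 antigen, averaged 549 CPM ± 74.4 in CD11c+ libraries, against 409 ± 21.8 in CD11c- libraries (log2 fold change 0.42, SE 0.11, adjusted p = 0.668 by edgeR). In the same libraries the 46 proteasome genes had a median of -0.01, and whether they follow division was not tested.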

How the data were processed

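RNA was sequenced from CD11c+ and CD11c- KLRG1+CD127- CD8 T cells of the liver, 4 libraries each, grouped by their titles. Per the labels' protocols, cDNA was made by a modified SMART-seq2 protocol with 10 to 12 cycles of preamplification and read as single reads of 50 bases. The submitters' processing notes name bcl2fastq, TopHat2 2.0.8b, HTSeq and the build mm9. For annotation and strand setting nothing is given in the sources used here, so reads of overlapping or antisense genes may be mixed. What the authors deposited are raw counts for each gene symbol. Reads in no gene were 63.1% to 67.1% of uniquely placed reads, and alignments at several places 50.3% to 53.6% of all entries. Both stayed out of library sizes.

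The test was edgeR's quasi-likelihood test (version 4.0.16, R 4.3.3), after filterByExpr and TMM, of CD11c+ over CD11c-. P-values were adjusted after Benjamini and Hochberg over 10073 genes, with a threshold of 0.05. CPM use library size and TMM factors, and scores use log2 CPM with a prior count of 2. Tried as alternatives were scaling by library size alone or by RLE factors, no filter, at least 5 CPM in 4 libraries, DESeq2 1.42.0, limma 3.58.1 voom with quality weights, the other legacy setting of glmQLFit, a replicate block, left-out libraries, thresholds of 0.01 and 0.1, and a prior count of 0.5. The steps were tested on simulated data. The genes, their groups and the lists were chosen with earlier results of these data known. Values per library were to be given for the 5 immunoproteasome genes, the 3 constitutive catalytic subunits and the 6 further genes of lowest p, and companion genes by an unadjusted p under 0.05 or from a fixed set, of which 1 gene is not reported here; further genes were picked for display with all values known. Promoters are from RefSeq (GRCm38.p6) and exon lengths from GENCODE vM21 (GRCm38). No pair of libraries of a subset differed by sampling noise alone (chi-square per degree of freedom at least 9.43).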

Additional observations from a re-analysis of the deposited data

Results flagged for a closer look

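In groups of 4 libraries, 5 of 106 sets of values held a library far from the others by Dixon's criterion, which chance gives in about 1 in 20. Psmb5 was at 149 CPM in CD11c+ replicate 4, against 118 to 122 CPM in the other CD11c+ libraries, and at 156 CPM in CD11c- replicate 4, against 117 to 121 CPM in the other CD11c- libraries. CD11c- replicate 4 was also apart for Psmc3, at 425 CPM against 360 to 370 CPM in the others, and for Psmd13, at 352 CPM against 258 to 274 CPM. Psmd2 was lowest in CD11c+ replicate 3, at 226 CPM, against 297 to 305 CPM in the other CD11c+ libraries.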

How the results depend on the processing

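The count of 0 proteasome genes past the threshold held under each alternative run. The count at an unadjusted p under 0.05 was 0 in each fit on all 8 libraries and 0 to 1 when 1 library or 1 replicate number was left out. The single genes were Psmd7 without CD11c+ replicate 1, Psmd1 without CD11c+ replicate 3, Psma2 without CD11c+ replicate 4, Psmd11 without CD11c- replicate 4, Psmd4 without both libraries of replicate 2 and Psme1 without both of replicate 3. Over all genes, 5 passed in the main setting, 12 with no filter, 8 with the stricter filter, 29 with DESeq2, 19 with limma voom, 11 with the other legacy setting, 11 after dropping the 3 libraries with fewest genes detected, 1 at a threshold of 0.01, 13 at 0.1 and 1 to 5 with libraries left out. With the replicate block 13 genes passed, 0 of them proteasome genes. Equal replicate numbers gave correlated deviations (0.0965, 0.166, 0.119 and 0.19 for numbers 1 to 4), 1 of them under 0.1, and each CD11c+ library correlated best with its own number, a hint from the data and not from the design. Some log2 fold changes turned sign and moved by more than their SE, among them that of Psmd1, 0.23 with all libraries in. With libraries left out, Psmd12 ran from -0.11 to 0.29, Psma1 from -0.14 to 0.16 and Psme3 from -0.25 to 0.26. After dropping the 3 libraries with fewest genes detected, Psma2 was at 0.00242, Psmb1 at 0.17, Psmd1 at -0.000418, Psmd12 at -0.14 and Psmd14 at -0.05298. The cause was not tested. The median of the immunoproteasome genes stayed negative in 21 of 21 alternatives (-0.17 to -0.01), and that of the core genes likewise (-0.15 to -0.01). That of the regulator genes was positive in all but the fit without CD11c- replicate 3. All alternatives draw on the same 8 libraries, so an unchanged sign is no independent support for a direction. Psme4 and Psma3 were measured least precisely, at SEs of 0.32 and 0.28, and counting error and spread between libraries were not separated.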
